A study of Rattus norvegicus with 8 samples.

Results

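The enzymes that turn squalene into cholesterol were followed here through 8 genes of the late sterol pathway, Sqle, Lss, Cyp51, Tm7sf2, Sc4mol, Nsdhl, Ebp and Dhcr7. They were chosen by gene name, and each was read by 1 probe, which gave 8 of the 41012 probes on the array. The clearest values came from Ebp and Sc4mol, the members that were well above background in both dyes on 6 of the 8 arrays. Ebp was 2.92-fold higher than vehicle in the testis cultured with 1 µM mono-(2-ethylhexyl) phthalate (MEHP). It was higher in testes 1 and 3 at 10 µM as well, where the mean of those testes was 2.16-fold. The mean of testis 2, whose MEHP signal was not well above background, lay below vehicle, and all 3 testes together gave 1.45-fold. Sc4mol was 1.81-fold higher at 1 µM, whereas all 3 testes at 10 µM lay below vehicle, as was the case for 36.2% of all tested probes. After another background correction, normexp with loess, the values at 1 µM were 1.48-fold for Ebp and 1.33-fold for Sc4mol, and no member was counted as changed there. With all 3 testes none of the 7 members that could be tested passed the threshold at 10 µM.

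Sterol synthesis begins with the mevalonate arm, which builds the hydrocarbon squalene from acetyl units. In the endoplasmic reticulum squalene is then oxidised, closed into the ring system of lanosterol, and trimmed of methyl groups while its double bonds are moved and reduced. Most of these genes are targets of the sterol regulatory element-binding proteins, membrane-held transcription factors that are released when sterols are scarce. In the testis cholesterol is the substrate from which Leydig cells make androgens, and some of its precursors act as signals in the gonads.

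Explants of fetal rat testis, taken between gestational days 14 and 15 from Sprague-Dawley dams, had been kept in culture for 72 h with MEHP or with vehicle, and all groups including the control received DMSO. MEHP is an active metabolite of a common plasticizer, the diester of the same alcohol. There was 1 testis at 1 µM and there were 3 testes at 10 µM, each a whole organ from a single fetus, and each was set on 2 arrays against pooled RNA of 3 vehicle testes. The repeat hybridization is a technical one, so the pair was averaged and counted as 1 testis. The pool counts as 1 control sample, and a test against it leaves out the spread between control testes. In a whole explant, fewer cells of a type and less RNA per cell cannot be told apart.

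Every ratio below is log2 of MEHP over vehicle, from the ratio of red over green that was deposited for each spot. The labels put MEHP on the green dye on all 8 arrays, while the methods state that dyes were exchanged within each pair without naming the array. MEHP was taken as green in the first hybridization and red in the repeat, which is the likely direction because it keeps the labels for the first array and the exchange for the second. With the opposite order every sign given here would turn. Over 3957 spots bright on all arrays, the red over green ratios of a pair correlated at r between −0.82 and −0.49 across spots, which are not independent replicates. Over the dimmer set of tested probes the turned pairs at 10 µM correlated at r between 0.23 and 0.54, and the pair at 1 µM at r = −0.16.

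Testis 2 at 10 µM stood apart from the others. In its MEHP channel 0.249% and 1.54% of the 43379 spots were well above background, against 7.80% to 29.8% on the other 6 arrays, and its median over all tested probes was −1.13. On either array of testis 2, none of the 7 tested members had an MEHP signal well above background. Means, medians and calls of the tested members at 10 µM, from the deposited ratios, are therefore given with and without it. The 8 arrays lay on 2 slides, one with testes 1 and 2 and the other with testis 3 and the 1 µM testis.

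The promoters of Ebp and Sc4mol, the members measured best, are shown first, because their RNA lay on opposite sides of the vehicle in testes 1 and 3 at 10 µM, and that of Cyp51 is shown beside them as a member without the box marked in the others. The sequences are RefSeq windows on assembly GRCr8, written in the direction of the gene. Each is a window of 250 bases before to 50 bases after a start, which for Sc4mol and Cyp51 is that of the RefSeq gene. The RefSeq gene of Ebp starts at 16971372, so its window is shifted against it and the second marked ATTGG lies inside the gene. The windows of Nsdhl and Tm7sf2, counted below, are shifted as well, and the second ATTGG of Tm7sf2 also lies inside its gene. Capitals mark CCAAT or its reverse complement ATTGG, the letters of the box bound by NF-Y, a factor that acts beside sterol regulatory element-binding proteins at many sterol genes. Sc4mol is now named Msmo1.
Ebp, chrX:16971212-16971511, plus strand: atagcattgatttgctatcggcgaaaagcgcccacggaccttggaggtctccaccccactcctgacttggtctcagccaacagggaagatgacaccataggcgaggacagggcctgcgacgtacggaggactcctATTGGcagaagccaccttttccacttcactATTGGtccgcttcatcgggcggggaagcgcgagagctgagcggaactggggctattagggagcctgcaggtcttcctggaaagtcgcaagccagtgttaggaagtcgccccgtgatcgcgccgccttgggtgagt
Sc4mol, chr16:29746863-29747162, plus strand: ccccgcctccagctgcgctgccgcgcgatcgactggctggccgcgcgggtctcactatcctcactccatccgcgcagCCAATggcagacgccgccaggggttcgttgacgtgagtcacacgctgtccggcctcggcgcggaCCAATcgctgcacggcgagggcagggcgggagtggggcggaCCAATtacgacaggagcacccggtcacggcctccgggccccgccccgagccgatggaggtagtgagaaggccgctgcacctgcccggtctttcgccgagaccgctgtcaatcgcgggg
Cyp51, chr4:30991443-30991742, plus strand: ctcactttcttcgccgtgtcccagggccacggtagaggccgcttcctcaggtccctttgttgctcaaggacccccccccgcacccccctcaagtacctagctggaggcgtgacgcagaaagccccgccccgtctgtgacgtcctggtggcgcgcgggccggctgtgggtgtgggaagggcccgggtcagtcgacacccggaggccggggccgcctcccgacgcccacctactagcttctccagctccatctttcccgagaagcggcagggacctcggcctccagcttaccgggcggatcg

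Windows were found for 7 members, all but Sqle. CCAAT stood on either strand in 5 of the 7, against 37.5% of 33469 promoters of the same length. Ebp held it 2 times, Sc4mol 3 times, Tm7sf2 2 times, Lss once and Nsdhl 5 times, whereas Cyp51 and Dhcr7 held none. GGGCGG, the letters of the box bound by Sp1, stood in 6 of the 7 against 33.1% of all promoters, and the member without it was Nsdhl. TCACNCCAC, a form of the sterol regulatory element, stood in 0 of the 7 and in 1.12% of all promoters. ATTGG and GGGCGG can share bases where one runs into the other, and a match or its lack describes only these windows.

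Ebp encodes the sterol isomerase that shifts a ring double bond late in the pathway, and its product is also known as the emopamil-binding protein. At 1 µM the 2 hybridizations of the testis gave 1.54 and 1.55. At 10 µM, testis 1 gave 0.97 and 1.19, testis 3 gave 1.34 and 0.95, and testis 2 gave −1.62 and 0.39. All 6 arrays on which both dyes were well above background thus lay above 0, and the only value below 0 came from testis 2, where the MEHP signal was not well above background. The signals behind these ratios were 5031 against 1733 for the vehicle on the first array at 1 µM and 3859 against 1317 on the repeat, in arbitrary units of processed signal. In testis 1 they were 3384 against 1727 and 3202 against 1404, and in testis 3 they were 2354 against 927 and 3547 against 1839. In testis 2 the MEHP signals were 910 and 745.

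Over the 3 testes at 10 µM, Ebp averaged 0.54 ± 1.00 (SD, n = 3), and limma gave an adjusted p of 0.66. Without testis 2 the mean was 1.11, or 2.16-fold, with an adjusted p of 0.042. That was 1 of 7 members called, set against 17.3% of all 9913 tested probes, so a single call is close to the background of that fit. Ebp alone was also called without testis 2 after normexp background correction with loess, where its mean was 0.67 and 10.6% of all probes were called, and after loess without background correction, where 14.6% were called. With each array centred on its median, Lss was called too, against 27.4% of all probes. These further settings were chosen after seeing the data and rest on the same testes 1 and 3, so they add no separate support. With testis 1 left out instead, the adjusted p of Ebp by limma was 0.89, and with testis 3 left out it was 0.98.

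**Figure D1:**
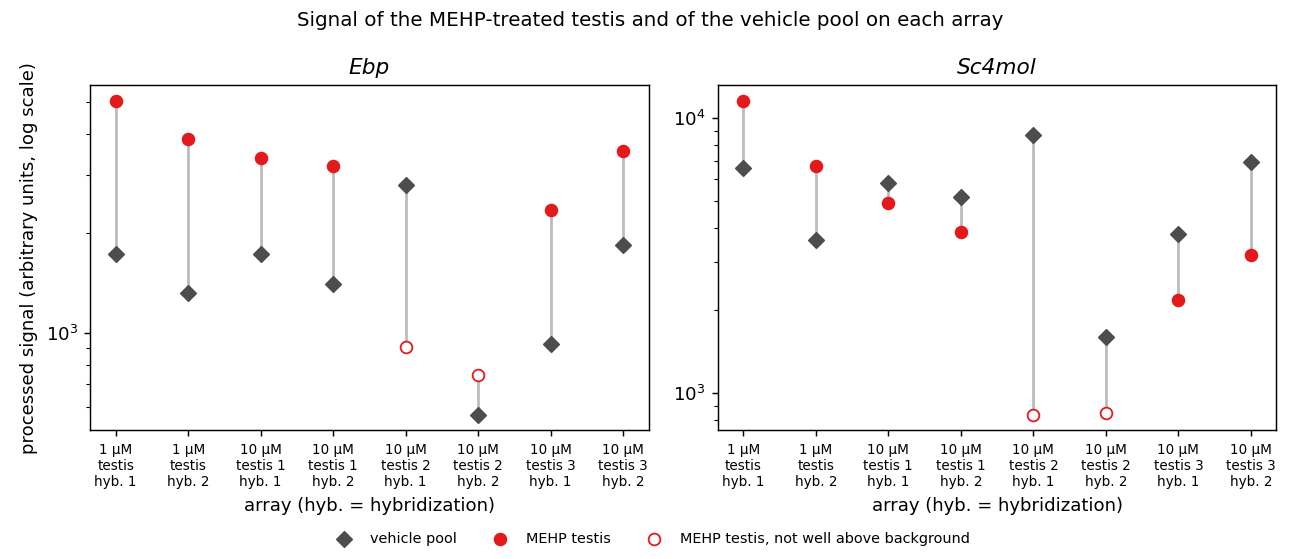
Processed signal (arbitrary units, log axis) of the MEHP-treated testis (circles) and of the vehicle pool (diamonds) on each of the 8 arrays, for Ebp on the left and Sc4mol on the right, with open circles where the MEHP signal was not well above background. The Ebp circle lies above its diamond on all arrays except the first of testis 2, and the Sc4mol circle lies above its diamond at 1 µM and below it on all 6 arrays at 10 µM.

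Sc4mol encodes the methylsterol monooxygenase that starts removal of the paired methyl groups of the sterol ring. Its ratios at 1 µM were 0.81 and 0.89. At 10 µM they were −0.23 and −0.43 in testis 1, −3.38 and −0.92 in testis 2, and −0.80 and −1.13 in testis 3. All 6 arrays at 10 µM lay below 0 and both arrays at 1 µM above it. On the 2 arrays at 1 µM the MEHP signals were 11567 and 6674 against vehicle signals of 6593 and 3592, and in testis 3 they were 2173 and 3178 against 3796 and 6933. The vehicle signal was well above background on all 8 arrays, with a lowest value of 1607, a median of 5476 and a highest of 8691.

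The mean of Sc4mol at 10 µM was −1.15 ± 0.92 (SD, n = 3), with an adjusted p of 0.26 by limma. Without testis 2 it was −0.65, or 0.638-fold, with an adjusted p of 0.21. Its value was below 0 in each of the 3 testes, as were those of Dhcr7 among the members and of 36.2% of all tested probes. The 10 µM testes differed from the 1 µM testis by −2.00 on the log2 scale, with an adjusted p of 0.9995 in a limma fit of the 4 testes.

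**Figure D2:**
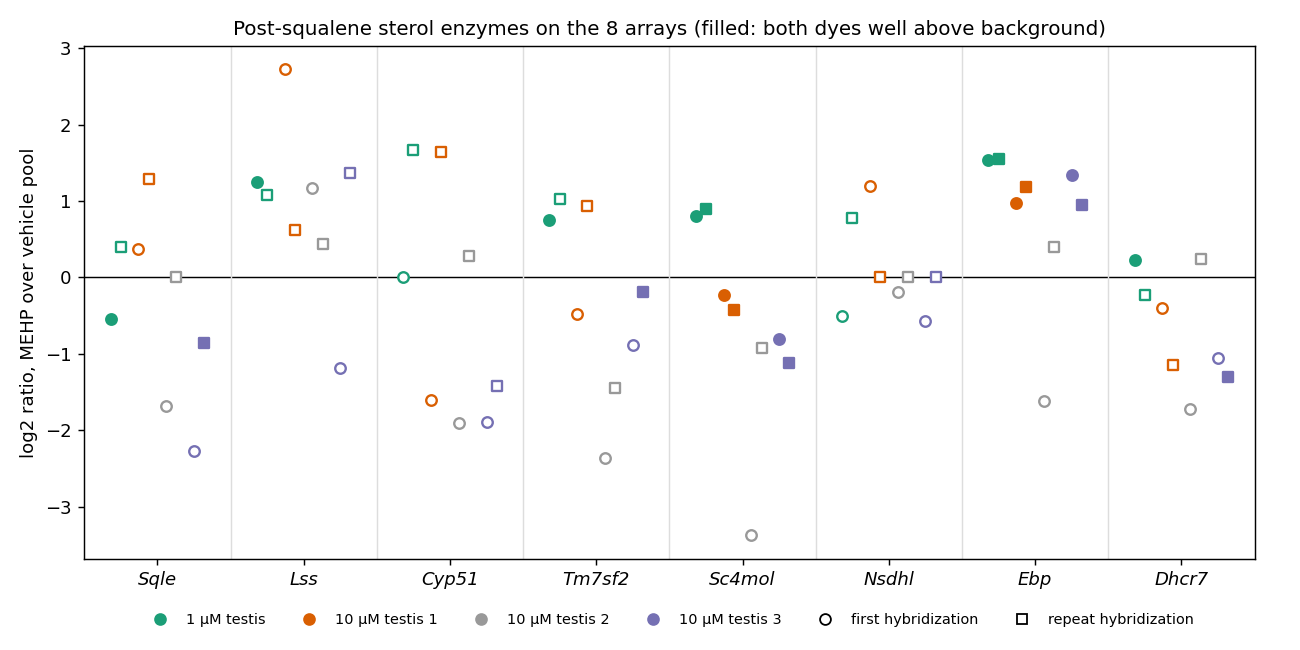
The log2 ratio of MEHP over the vehicle pool for each of the 8 enzymes in pathway order on each array, with circles for first and squares for repeat hybridizations, a colour for each testis, and filled symbols where both dyes were well above background. Ebp and Sc4mol have filled symbols on 6 arrays each, and the pairs of most other members lie far apart.

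Sqle, squalene epoxidase, carries out the first oxygenation of the pathway. Its 1 µM values were −0.55 and 0.40. At 10 µM it gave 0.37 and 1.29 in testis 1, −1.68 and 0.00 in testis 2, and −2.27 and −0.86 in testis 3. The testes overlapped 0 from both sides, the 0.00 is a ratio of signals at the background in both dyes, and the mean was −0.52 ± 1.23 (SD, n = 3), with an adjusted p of 0.67 by limma. Without testis 2 it came to −0.37 and the adjusted p to 0.63.

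Lss, lanosterol synthase, closes the epoxide into the ring system. It gave 1.25 and 1.08 at 1 µM. At 10 µM the values were 2.73 and 0.62 in testis 1, 1.17 and 0.43 in testis 2, and −1.19 and 1.37 in testis 3. Lss was the only member whose mean lay above 0 in each of the 3 testes at 10 µM, although the pair of testis 3 disagreed in sign. The background flag was cleared in the MEHP dye on 2 of the 6 arrays and in the vehicle dye on 1. The mean was 0.85 ± 0.79 (SD, n = 3), with an adjusted p of 0.43 by limma, and 0.88 without testis 2, with an adjusted p of 0.15.

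Cyp51, the sterol demethylase of the cytochrome P450 family, gave 0.00 and 1.67 at 1 µM. At 10 µM it gave −1.60 and 1.64 in testis 1, −1.91 and 0.28 in testis 2, and −1.89 and −1.42 in testis 3. On no array were both dyes well above background, and the repeat lay above the first hybridization in all 4 testes. The mean at 10 µM was −0.82 ± 0.84 (SD, n = 3), with an adjusted p of 0.46 by limma, and it was −0.82 without testis 2, with an adjusted p of 0.19.

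Tm7sf2 encodes a sterol reductase that acts on the double bond left by Cyp51. It gave 0.75 and 1.03 at 1 µM, and −0.48 and 0.94 in testis 1, −2.37 and −1.44 in testis 2, and −0.89 and −0.20 in testis 3 at 10 µM. Values at 10 µM lay below 0 on 5 of 6 arrays. The mean was −0.74 ± 1.08 (SD, n = 3) with an adjusted p of 0.51 by limma, and −0.16 without testis 2, with an adjusted p of 0.79.

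Dhcr7 encodes the reductase that makes cholesterol from its last precursor in one branch of the pathway. Its 1 µM values, 0.23 and −0.23, lay on either side of 0. At 10 µM it gave −0.40 and −1.15 in testis 1, −1.72 and 0.24 in testis 2, and −1.06 and −1.30 in testis 3. The means of the 3 testes were the closest together of the 7 tested members, at −0.90 ± 0.24 (SD, n = 3). The adjusted p by limma was 0.40, and 0.069 without testis 2, where the mean was −0.98.

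Nsdhl encodes the dehydrogenase that follows Sc4mol in the removal of the methyl groups. It was not well above background in either dye on any of the 8 arrays, and 11 of its 16 signals had been replaced by a surrogate for the background. It was not tested, and its ratios, between −0.58 and 1.2 at 10 µM, give no fold.

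At 10 µM, limma called 0 of the 7 tested members, with the threshold at an adjusted p of 0.05, against 2.24% of the 9913 probes tested. At an unadjusted p under 0.05 there was 1 member, Sc4mol, against 17.6% of all probes. An error-weighted mean over the 6 arrays, which takes the error of each spot and not the spread between testes, called 6 of the 7, all but Tm7sf2, and 57.5% of all tested probes. With normexp and loess, the 7 means at 10 µM lay closer to 0, between −0.29 for Sc4mol and 0.49 for Ebp, with 0.13 for Lss, −0.22 for Dhcr7 and a median of −0.16. Of the members, 2 had a mean above 0 and 5 a mean below 0. Their median was −0.74 against −0.42 for all tested probes, and without testis 2 it was −0.37 against −0.04. For testis 1 the members' median was 0.23, for testis 2 −0.81 and for testis 3 −0.97, beside medians of 0.09, −1.13 and −0.20 over all tested probes.

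**Figure D3:**
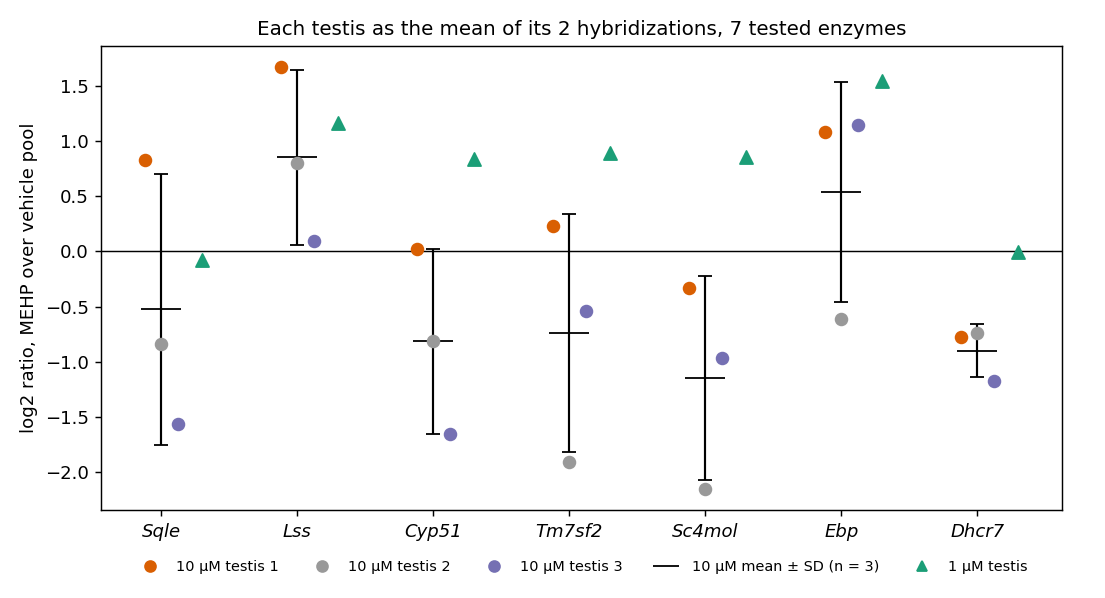
The log2 ratio of MEHP over the vehicle pool for the 7 tested enzymes, with a circle for each 10 µM testis as the mean of its 2 hybridizations, a horizontal bar with whiskers for their mean ± SD (n = 3), and a triangle for the 1 µM testis. The 3 testes lie on one side of 0 for Lss, Sc4mol and Dhcr7, and the triangle lies above the 10 µM mean for all 7 genes.

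The testis at 1 µM had no replicate, so a change was counted there where both hybridizations passed 1.5-fold in the same direction, with no test. Ebp, Lss, Tm7sf2 and Sc4mol were counted as higher, 4 of the 7 members, against 4.05% of 13174 probes. None was counted as lower, against 2.96% of the probes. Their means were 1.54 for Ebp, 1.17 for Lss, 0.89 for Tm7sf2 and 0.85 for Sc4mol. The median of the 7 members was 0.85, and that of all probes was 0.02. On this pair of arrays 2541 probes passed 1.5-fold in opposite directions, more than passed it in the same one.

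The count at 1 µM depended on how the background was treated. After normexp background correction with loess 0 of the 7 members and 0.501% of all probes were counted as higher, with the 4 members between 0.15 and 0.56. After loess without background correction 2 members were counted, against 0.584% of all probes. With both dyes required to be well above background on both arrays, Ebp and Sc4mol were the 2 members left and both were counted, against 3.5% of 4490 probes.

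Between the doses, the value at 10 µM lay below that at 1 µM for all 7 tested members and for 79% of all 9785 probes tested at both doses, with differences among the members from −2.00 for Sc4mol to −0.31 for Lss and a median of −1.01. The median over all these probes was −0.53. With centred arrays, and also without testis 3, 5 of the 7 lay below 0, and Sqle and Lss lay between 0.04 and 0.18. limma called 0 of the 7 members and 0% of all these probes at an adjusted p of 0.05. At an unadjusted p under 0.05 there were 0 members and 26 probes. Without testis 2, Sc4mol differed by −1.5 and Cyp51 by −1.65, both with an adjusted p of 0.87. On the slide that held both doses, testis 3 minus the 1 µM testis lay between −2.49 for Cyp51 and −0.40 for Ebp. It was below 0 for all 7 members and for 61.8% of all probes. The lone testis at 1 µM is assumed in this fit to vary like those at 10 µM.

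The rest of the sterol pathway was read from lists of related genes, each by its brightest probe. Of the genes named below, Fdps and Idi1 each had 2 probes tested at 10 µM and Insig1 had 3, and only the brightest is given. Of the 9 genes of the mevalonate arm, 7 were tested at 10 µM and limma called 0, with a median of −0.51, or −0.29 without testis 2. Without that testis it called 1 of the 7 as lower, Fdps, the synthase of farnesyl diphosphate, at −1.51 with an adjusted p of 0.022, where 17.3% of all probes were called. With all testes Fdps averaged −1.82, with an adjusted p of 0.055 by limma. In the 1 µM testis 3 of the 9 were counted as higher, against 4.05% of all probes, and none as lower, against 2.96%, with a median of 0.42. These counts come from the deposited ratios, and after normexp with loess 0.501% of all probes were counted as higher. The 3 genes were Hmgcs1 at 0.97 and 0.75, Mvd at 0.94 and 0.60, and Idi1 at 1.47 and 1.54. These encode the synthase that condenses acetyl units, a decarboxylase and an isomerase. At 10 µM Idi1 gave 0.60 in testis 1, −2.35 in testis 2 and 0.47 in testis 3.

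Among 3 other late enzymes, Hsd17b7, Sc5d and Lbr, 0 passed the filter on dim probes at either dose. All 4 electron donors and partners of these enzymes were tested and none was called, with a median of −0.78 at 10 µM and −0.29 without testis 2. Of 10 genes for sterol sensing, uptake and storage, 4 were tested at 10 µM and none was called. Their median was −0.38, and it turned to 0.24 without testis 2. At 1 µM, 1 of them was counted as higher by the deposited ratios, against 4.05% of all probes. It was Insig1, which holds the sterol sensor in the endoplasmic reticulum, at 1.22 and 1.71. Its values at 10 µM were 0.70 in testis 1, −1.96 in testis 2 and −0.17 in testis 3.

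**Figure D4:**
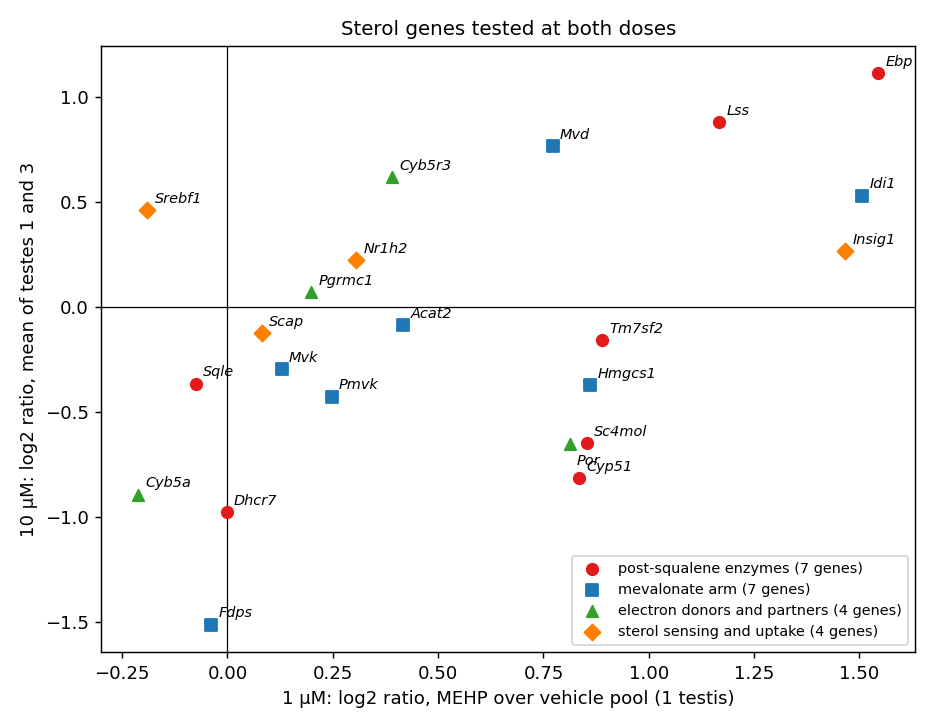
The log2 ratio at 1 µM (1 testis, horizontal axis) against the mean of testes 1 and 3 at 10 µM (vertical axis) for the sterol genes tested at both doses, with a colour and symbol for each list. Both axes share the vehicle pool. Ebp and Lss lie above 0 on both, Sc4mol, Cyp51 and Tm7sf2 lie to the right and below 0, and Fdps is lowest at 10 µM.

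Over the 8 arrays, the named probes with the smallest root mean square difference from Ebp, out of 5165 searched, were those of Psmb9, a subunit of the immunoproteasome, at 0.18, Rtp4, a receptor transporter, at 0.36, and Hdac7a, a histone deacetylase, at 0.38. Psmb9 averaged 1.5 at 1 µM and 0.60 at 10 µM, and both dyes were well above background on 6 of 8 arrays, as for Ebp. For Hdac7a that held on 1 array. For Sc4mol the nearest were Ngfrap1 at 0.42, RT1-M6-2, of the class I histocompatibility family, at 0.42, and Sec61b, a subunit of the translocon, at 0.43. They averaged 0.26, 0.62 and 0.14 at 1 µM and −1.02, −0.84 and −1.08 at 10 µM, so none was as high as Sc4mol at 1 µM. All 8 arrays share the vehicle pool, and this is a description of likeness.

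Markers of the cells in a fetal testis were read beside the enzymes. All 7 Leydig markers were on the array and 4 were tested at 10 µM. Of these limma called 1, Cyp17a1, the lyase of androgen synthesis, at −1.96 with an adjusted p of 0.039, where 2.24% of all probes were called. Without testis 2, Cyp17a1 and Insl3 were called as lower, 2 of the 4, where 17.3% of all probes were called. Insl3 averaged −1.55 there, and −1.78 with all testes, where its adjusted p by limma was 0.059. The summed signal of the Leydig list, MEHP over vehicle, was −0.57 and −0.54 in testis 1, −1.61 and −0.87 in testis 2, −1.47 and −1.78 in testis 3, and −0.05 and 0.15 at 1 µM. Single Leydig markers moved both ways at 1 µM, where 5 passed the filter. Star (1.56 and 2.10) and Cyp11a1 (0.80 and 0.76) were counted as higher, against 4.05% of all probes. Cyp17a1 (−1.23 and −0.98) and Insl3 (−1.96 and −1.65) were counted as lower, against 2.96%. These counts come from the deposited ratios. After normexp with loess 0.501% of all probes were counted as higher and 0 of 13174 as lower. The summed signal of the 8 sterol enzymes was 0.14 and 0.15 in testis 1, −1.97 and −0.30 in testis 2, −0.35 and −0.37 in testis 3, and 0.87 and 1.01 at 1 µM. Such a sum follows the brightest probes, here mainly Sc4mol and Ebp. On the first array at 1 µM their MEHP signals were 11567 and 5031, and the next highest was 1202 for Tm7sf2. The Leydig and sterol enzyme sums were lower in testis 3 than in testis 1, as was that of the Sertoli list, at −0.85 and −0.55 against −0.07 and 0.09. So were those of the mevalonate arm, electron donors, sterol sensing and germ lists, while the remaining lists differed between hybridizations. The median over all tested probes was lower as well, at −0.20 against 0.09, and these testes lay on different slides. Single genes differed in how testis 3 stood to testis 1, since Cyp17a1 gave −2.22 in testis 1 and −2.07 in testis 3, Insl3 −1.53 and −1.58, and Ebp 1.08 and 1.15. Star, which carries cholesterol into mitochondria, gave 1.27 in testis 1 and −1.86 in testis 3, and Sqle gave 0.83 and −1.56. The part of Leydig cell RNA in the enzyme values was not tested. Nr5a1 and Lhcgr of the Leydig list were not well above background in the vehicle on any array.

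Of 6 Sertoli markers 5 were tested and 0 called, with a median of −1.22. Without testis 2 the median was −0.80 and Dhh was called as lower, at −1.56 against −1.30 with all testes. None of the 3 germ cell markers on the array was tested at 10 µM, and Pou5f1 and Kit were not well above background in the vehicle on any array. Of the peritubular and interstitial markers 2 of 4 were tested, and without testis 2 Pdgfra was called as higher at 1.43 and Dcn as lower at −1.34. With all testes Pdgfra averaged 0.52, with −1.31 in testis 2, and Dcn averaged −1.53. Kdr was the 1 endothelial marker tested, at −0.08, or 0.88 without testis 2, and 0 of 2 blood markers were tested at 10 µM. Of 4 ovary or mesonephros markers 2 were tested, and Wnt4 was called as higher without testis 2, at 1.28. In testis 2 Wnt4 gave −1.49, and its mean with all testes was 0.36. All these calls without testis 2 stand beside 17.3% of all probes called in that fit, and the counts with 3 testes beside 2.24%.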

How the data were processed

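RNA of 4 cultured fetal testes was measured on 8 2-colour Agilent Whole Rat Genome arrays against 1 pool of 3 vehicle testes. The authors read the scans in Agilent Feature Extraction 9.1, per the labels, which subtracted background, normalized dyes within each array and wrote the deposited log10 ratio of red over green with its error on that scale. The deposited intensity values are the processed, mean and local background signals of each dye, and the deposited flags mark spots well above background, outliers, surrogates and saturation. Lists of the authors' own fold changes and p-values, 1 for each dose, were not used.

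Ratios were converted to log2 and turned to MEHP over vehicle. Control and outlier spots were dropped, then spots were averaged by probe and hybridizations by testis. No member spot was an outlier or saturated. A probe entered the test at 10 µM when, on 3 or more of the 6 arrays, at least 0.5 of its spots stood well above background in either dye, and at 1 µM when this held on 1 or more of the 2 arrays, with a value on every array of the dose. The 3 testes were compared with 0, and the doses with each other, with limma 3.58.1 (lmFit, eBayes) under R 4.3.3, two-sided, at a threshold of 0.05 after Benjamini-Hochberg adjustment across the tested probes. The scripts were tested on simulated data. All 8 members were matched by accession to a GRCr8 gene table used for names, and 7 to RefSeq promoters. Files were read with the data.table package (version 1.17.8) and pandas 2.3.3, and figures drawn with matplotlib 3.10.9 in Python 3.11.15.

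The members and lists were chosen with earlier results of these data known. Some genes of the lists are not reported here. All members are named. For likeness, members with both dyes well above background on at least 6 arrays were set against every named probe tested at both doses, and the 3 nearest named. Alternatives covered normexp with an offset of 50 and loess, loess alone, centring, filters on dim probes, each testis left out, outlier spots kept, 1 hybridization alone, an eBayes trend, testis and slide blocks, error weighting, the dyes as labelled and a 2-fold limit. Each member has a single probe, so no other probe of its gene could be tried. Arrays carry no counts, and their number limits the precision.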

Additional observations from a re-analysis of the deposited data

How the results depend on the processing

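No paired analysis was possible because the 1 µM group has a single testis. With 3 testes the count of called members at 10 µM stayed at 0 except under error weighting, where it was 6. Leaving out each testis gave 0 to 1 called members, a median of the members between −1.20 and −0.37, and 0 to 1715 called probes among all tested, with 0 without testis 1 or testis 3 and 1715 without testis 2, of which 214 were among the 222 called with all testes. Without testis 2, in settings chosen after seeing the data, 1 member was called with normexp and loess, 1 with loess alone and 2 with centred arrays, against 10.6%, 14.6% and 27.4% of all probes.

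Of all tested probes, 0 were called with normexp and loess, loess alone, no filter on dim probes, the filter on both dyes on all 6 arrays, first hybridizations alone, the testis block, the slide block and MEHP on Cy3 on all arrays. No member passed that filter on both dyes. The count was 106 with centred arrays, where 55 were higher and 51 lower against 37 and 185 otherwise, 87 with an eBayes trend and 5701 with error weighting. With repeat hybridizations alone the median of the members was 0.14, Sqle turned to 0.14 and Cyp51 to 0.17. The cause was not tested.

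At 1 µM the count of 4 members fell to 0 with normexp and loess, and was 2 with loess alone, with a 2-fold limit and with the filter on both dyes. Between the doses, 0 members passed with centred arrays or with any 1 testis at 10 µM left out, the alternatives run there. Members other than Ebp and Sc4mol were seldom above background in both dyes, and for them the arrays limit what a ratio shows.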
